A study of Mus musculus with 9 samples.

Results

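The genes described here are 36 genes of the dividing cell, chosen by symbol, out of 55385 gene rows in a table of RNA levels from the mouse brain. They fall into 7 roles: 4 cyclins of the first growth phase and of entry into DNA synthesis, 2 transcription factors, 7 genes of the replicative helicase, 4 genes of nucleotide supply and the sliding clamp, 7 genes of mitotic entry, 10 genes of the spindle, its checkpoint and mitotic exit, and 2 markers of cycling cells. Each symbol had 1 row, and no member was missing from the table. The rule names symbols and uses no measured value, though the list was drawn up with earlier results of these data known.

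RNA came from the ischemic hemisphere, per the labels' protocols, of male C57BL/6 mice aged 8 to 10 weeks and weighing 22 to 25 g. There were 3 groups of 3 libraries. Sham mice had the neck surgery without the occlusion, tMCAO mice had the right middle cerebral artery blocked for 90 min with a filament that was then withdrawn (transient middle cerebral artery occlusion), and celastrol mice had the same occlusion and an intraperitoneal injection of celastrol, a plant triterpenoid, at 4.5 mg/kg when reperfusion began. The sources used here give neither a vehicle for the other groups, nor the sampling time, nor how many animals made up each library. The p-values therefore measure only the spread between these libraries, which may be technical. Celastrol mice are compared with tMCAO mice, which shared the occlusion and differed in the drug as far as the labels say.

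Cells that leave rest make D cyclins, which with their kinases release E2F factors to switch on the genes of DNA synthesis. The Mcm2 to Mcm7 proteins form the helicase ring loaded at replication origins, Cdc45 joins it when replication starts, and Pcna is the ring that holds the polymerases on DNA. Later in the cycle, Foxm1 and the DREAM and MuvB complexes govern a later wave of genes, for cyclin B, Cdk1, the mitotic kinases, kinesins and the spindle checkpoint. In the adult brain most neurons do not divide, and dividing cells are mainly neural progenitors, oligodendrocyte precursors, activated microglia and vascular cells. Several members also have work outside division: Pcna and the ribonucleotide reductase subunits serve DNA repair, and Ccnd1 and Ccne1 are made in some cells that do not divide.

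The 2 waves are usually read from promoters: E2F factors bind GC-rich letters in replication genes, while late genes often hold a CHR (cell cycle genes homology region) beside CCAAT boxes. The 6 promoters shown are the 250 bases before the start of 3 helicase genes and 3 late genes (RefSeq, GRCm38.p6, written 5′ to 3′ on the gene's strand). All 6 genes lie on the minus strand, and capitals mark the motif letters. They were picked after the values were seen, to show genes of both waves.
Mcm2, chr6:88898781-88899030: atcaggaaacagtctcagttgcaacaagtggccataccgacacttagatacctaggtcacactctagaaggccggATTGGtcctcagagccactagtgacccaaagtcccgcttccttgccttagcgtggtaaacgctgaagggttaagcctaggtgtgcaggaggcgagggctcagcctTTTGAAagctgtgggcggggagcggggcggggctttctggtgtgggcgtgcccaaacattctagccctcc
Mcm3, chr1:20820313-20820562: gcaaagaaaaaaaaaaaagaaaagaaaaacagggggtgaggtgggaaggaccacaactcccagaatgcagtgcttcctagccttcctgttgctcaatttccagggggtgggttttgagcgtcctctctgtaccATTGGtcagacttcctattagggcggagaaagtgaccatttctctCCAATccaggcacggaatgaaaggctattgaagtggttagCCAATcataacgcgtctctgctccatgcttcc
Mcm6, chr1:128359706-128359955: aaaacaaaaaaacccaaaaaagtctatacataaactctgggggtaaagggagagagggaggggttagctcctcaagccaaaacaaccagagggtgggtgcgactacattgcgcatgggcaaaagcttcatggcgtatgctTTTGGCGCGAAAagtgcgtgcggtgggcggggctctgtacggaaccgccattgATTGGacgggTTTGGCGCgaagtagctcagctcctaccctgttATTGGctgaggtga
Cdk1, chr10:69352913-69353162: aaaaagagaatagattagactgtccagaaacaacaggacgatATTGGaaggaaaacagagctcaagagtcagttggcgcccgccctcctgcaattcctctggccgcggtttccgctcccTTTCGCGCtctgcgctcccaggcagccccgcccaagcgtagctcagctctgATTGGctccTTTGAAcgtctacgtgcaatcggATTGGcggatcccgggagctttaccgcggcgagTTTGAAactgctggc
Top2a, chr11:99024190-99024439: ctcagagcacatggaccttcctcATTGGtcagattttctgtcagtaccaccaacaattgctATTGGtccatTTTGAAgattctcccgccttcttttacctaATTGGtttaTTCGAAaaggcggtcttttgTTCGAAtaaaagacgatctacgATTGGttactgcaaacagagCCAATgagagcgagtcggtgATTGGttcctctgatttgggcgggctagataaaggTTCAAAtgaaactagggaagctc
Mki67, chr7:135716380-135716629: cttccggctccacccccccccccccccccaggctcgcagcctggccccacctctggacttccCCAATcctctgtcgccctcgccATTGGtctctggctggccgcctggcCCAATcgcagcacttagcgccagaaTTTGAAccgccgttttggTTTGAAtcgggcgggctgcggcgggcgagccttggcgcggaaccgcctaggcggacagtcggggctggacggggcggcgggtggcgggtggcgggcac
The Mcm6 window held 3 E2F matches, of which 2 overlapped each other, and 2 CCAAT boxes. The Cdk1 window held 1 E2F match, 2 CHR matches and 3 CCAAT boxes, and its last bases lie within the annotated gene. The Top2a window held 6 CHR matches and 6 CCAAT boxes. Each TTCGAA site there counted as 2 of the CHR matches, since its letters read the same on both strands. The Mki67 window held 2 CHR matches and 3 CCAAT boxes. Mcm3 had 3 CCAAT boxes and no CHR or E2F match. Mcm2, though a helicase gene, had 1 CHR match, 1 CCAAT box and no E2F match.

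Promoter windows were found for 27 of the 36 members and were searched on both strands for CCAAT, for TTTGAA or TTCGAA as the CHR, and for TTTCCCGC, TTTGGCGC, TTTCGCGC or TTTGCCGC as E2F letters. A CHR match was present in 53.3% of 15 windows of mitotic genes and cycling markers, in 30% of the 10 replication windows, and in 17.4% of all 27025 windows of that length. CCAAT was present in 93.3% of these 15 windows and in 90% of the 10 replication windows, against 34.5% of all windows. E2F letters were present in 30% of the 10 replication windows, 6.67% of the 15 mitotic and marker windows and 1.91% of all windows. These are matches of letters, not bound sites, and they were not measured in these mice.

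The members were a small part of the RNA: they took 0.0273% to 0.0469% of the 60392960 to 75158625 estimated counts per library. FPKM (fragments scaled for the length of the transcript and the size of the library) sets genes beside each other. Pcna was the most abundant member by mean FPKM over the 9 libraries (16.03), followed by Ccnd1 (11.7), Ccnd2 (6.46) and Ccne1 (5.58). Only 12 members had a mean FPKM of at least 1, and 16 lay under 0.5. The lowest were Bub1, the checkpoint kinase, at 0.0354 and Cenpf, a kinetochore protein, at 0.0423. Within each library CPM is used from here on, meaning estimated counts scaled to a common library total by TMM, which corrects for composition. The genes of the helicase, clamp and early cyclins mostly sat above the late mitotic genes on the FPKM scale. Cdc45, at 0.485, was an exception.

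**Figure D1:**
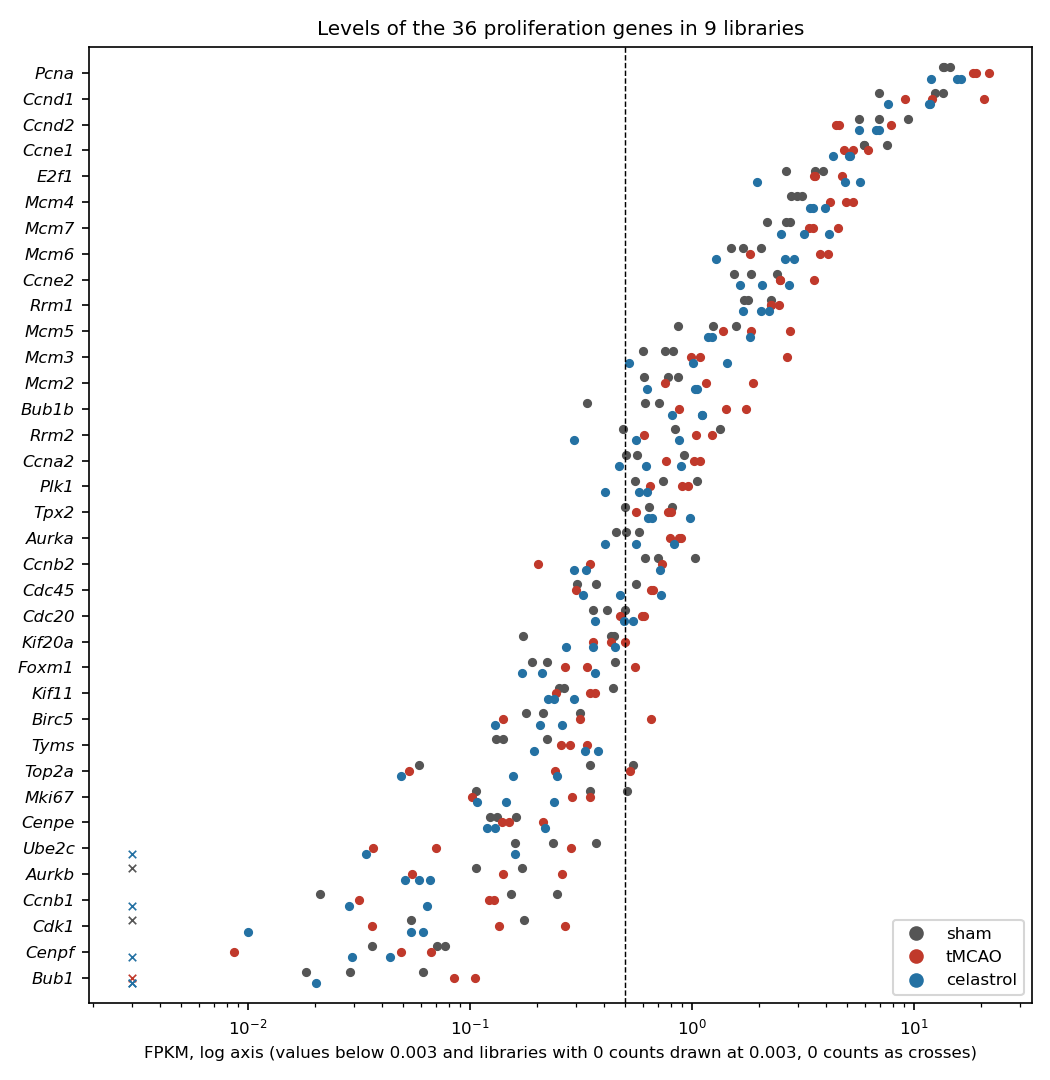
FPKM on a log axis for each of the 36 genes in the 9 libraries, coloured by group, with the filter of 0.5 as a dashed line and libraries with 0 counts as crosses. Pcna, the D cyclins and Ccne1 lie at the top, and the late mitotic genes lie mostly below the line.

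Genes entered the test if FPKM was at least 0.5 in at least 3 libraries: 22 members did and 14 did not. Among the 22, Cdc20 had no sham library past that level, and 16 had all 3. The 14 others are Foxm1, Tyms, Ccnb1, Cdk1, Aurkb, Bub1, Birc5, Cenpe, Cenpf, Kif11, Kif20a, Ube2c, Mki67 and Top2a, so counts over tested members leave out most of the late genes. Counting may mix strands, since strand use is not given: 17 members overlap another row, 14 of them on the opposite strand. Kif20a shares 2327 bases with Cdc23 and Ccne2 shares 5622 bases with Ints8, both better expressed than the member, and Mcm7 overlaps Cops6 and Ap4m1. Ccna2 shares 863 bases with Exosc9, Cdc45 194 with Ufd1 and Cdc20 53 with Elovl1, each also better expressed than the member. Pseudogene rows exist for Pcna, Tyms, Ccnb1 and Ccnb2, and Foxm1 overlaps Tex52 on its own strand, so the levels of these genes are uncertain too.

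After occlusion the helicase genes had higher values than in sham, but no member passed the test. In tMCAO against sham, 0 of the 22 tested members had an adjusted p below 0.05 in edgeR (quasi-likelihood test, Benjamini-Hochberg adjustment), and of all 16982 genes 0% were called. At an unadjusted p below 0.05, 6 of 22 were higher (Bub1b, Mcm3, Mcm4, Mcm6, Mcm7 and Pcna), which is 27.3%, beside 8.56% of all genes, and 0 were lower, beside 6.36%. DESeq2 called 2 members, Mcm4 and Bub1b, beside 4.92% of all genes. The median log2 fold change of the 22 was 0.353, and over all genes it was 0.007. Of the 22, 18 had a value above 0, beside 50.9% of all genes. Plk1 and Rrm2 lay at 0.00 on this scale and turned sign with the setting. The number above 0 was 17 to 19 over 12 other settings and 15 to 19 when 1 library was left out.

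Mcm4, a helicase subunit (chr16:15623897-15637400), had the smallest unadjusted p of the members. It was at 12.1, 11.95 and 13.2 CPM in sham, at 19.5, 16.7 and 20.3 in tMCAO and at 15.4, 14.5 and 14.0 in celastrol. All 3 tMCAO libraries lay above all 3 celastrol libraries, which lay above all 3 sham libraries. Its log2 fold change in tMCAO against sham was 0.60 ± 0.13 (SE, n = 3 and 3; edgeR adjusted p = 0.125), and DESeq2 gave an adjusted p of 0.000637. Over the other settings outside DESeq2 and over leaving out each library, edgeR's and limma's adjusted p ran from 0.101 to 0.439.

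The other helicase genes had the same direction with wider spread. Mcm3 was at 3.55, 3.42 and 2.69 CPM in sham, at 4.52, 4.15 and 10.8 in tMCAO and at 5.83, 2.34 and 4.27 in celastrol. The tMCAO libraries lay above sham without overlap, with replicate 3 far above the others, while celastrol overlapped both groups. Mcm6 was at 10.8, 9.46 and 8.29 CPM in sham, at 19.4, 9.43 and 20.5 in tMCAO and at 14.3, 7.17 and 13.7 in celastrol. Its second tMCAO library lay within the sham range and its second celastrol library below it. Mcm7 was at 11.4 to 14.6 CPM in sham, 16.3 to 21.4 in tMCAO and 13.3 to 19.6 in celastrol, and tMCAO did not overlap sham. Mcm2 and Mcm5 overlapped sham in tMCAO (log2 fold changes 0.65 ± 0.33 and 0.60 ± 0.32, edgeR adjusted p = 0.393 and 0.419). Cdc45, which joins the helicase when it fires, was at 0.29 ± 0.43, the smallest of the 7. All 7 helicase genes were above 0 in tMCAO against sham, beside 50.9% of all genes, with a median of 0.602. Of the 7, 4 were higher at an unadjusted p below 0.05, beside 8.56% of all genes. The 7 were measured in the same libraries, so they are not independent of each other.

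**Figure D2:**
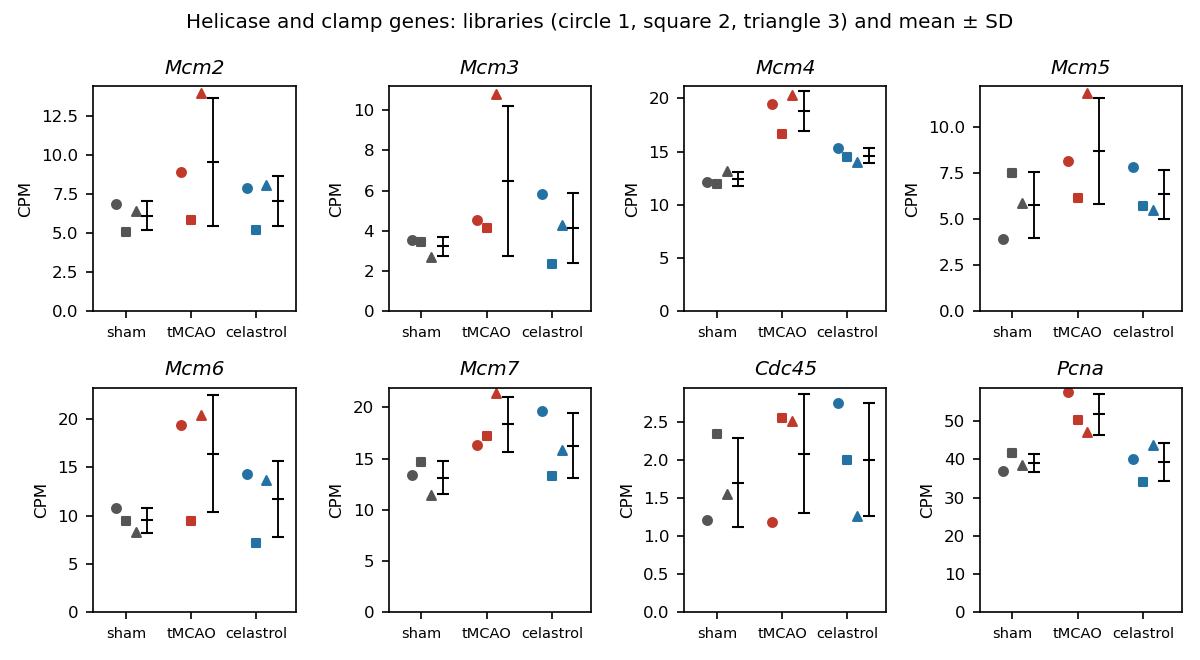
CPM of 7 helicase genes and Pcna in each library (circle, square and triangle for replicates 1, 2 and 3), with the mean ± SD of each group (n = 3). Mcm4 and Pcna have little spread within groups, while replicate 3 is the highest tMCAO library for each of Mcm2 to Mcm7.

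Among the genes of nucleotide supply and the clamp, Pcna (chr2:132249162-132253314) had the smallest p. It was at 36.9, 41.5 and 38.4 CPM in sham, at 57.5, 50.3 and 47.2 in tMCAO and at 40.1, 34.0 and 43.8 in celastrol. The tMCAO libraries lay above the other 6 without overlap, while sham and celastrol overlapped. The log2 fold change in tMCAO against sham was 0.41 ± 0.13 (edgeR adjusted p = 0.225). Rrm1, the large subunit of ribonucleotide reductase, was at 0.18 ± 0.13, and Rrm2, the small subunit that is limited to S phase in dividing cells, was at 0.00 ± 0.48. Rrm2 varied within sham from 1.56 to 4.38 CPM. Tyms, which makes thymidylate, lay below the filter, with 222 counts over the 3 sham libraries, 413 in tMCAO and 446 in celastrol.

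The early cyclins did not share a direction. Ccnd1 spanned 37.2 to 74.5 CPM in sham and 47.4 to 103 in tMCAO, and the groups overlapped. Ccnd2 spanned 60.5 to 104 CPM in sham and 46.5 to 79.0 in tMCAO, and also overlapped. Ccne1, a partner of Cdk2 at the start of DNA synthesis, was at 17.9, 23.9 and 18.7 CPM in sham, at 15.6, 14.3 and 17.7 in tMCAO and at 12.4, 16.4 and 15.1 in celastrol. All 6 occluded libraries lay below all 3 sham libraries, though tMCAO replicate 3 came close to sham replicate 1. The log2 fold change in tMCAO against sham was −0.35 ± 0.17 (edgeR adjusted p = 0.377). Its relative Ccne2 was at 0.46 ± 0.25 in the same comparison, with overlapping groups. E2f1 was at 0.13 ± 0.37, and Foxm1, below the filter, had 365 counts in sham, 524 in tMCAO and 343 in celastrol.

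In the mitotic groups Bub1b, the checkpoint protein BubR1 (chr2:118598211-118641591), had the largest difference of the tested members. It was at 1.65, 3.64 and 3.12 CPM in sham, at 6.74, 8.27 and 4.01 in tMCAO and at 5.14, 5.64 and 3.93 in celastrol. All 6 occluded libraries lay above all 3 sham libraries, but tMCAO replicate 3 and celastrol replicate 3 were close to the highest sham library. The log2 fold change in tMCAO against sham was 1.18 ± 0.37 (edgeR adjusted p = 0.221), and DESeq2 gave an adjusted p of 0.0448. Aurka, a centrosome kinase, also did not overlap, at 1.33 to 1.75 CPM in sham and 2.16 to 2.50 in tMCAO (edgeR adjusted p = 0.352). Ccnb2, a B-type cyclin, had the lowest value of the tested members at −0.96 ± 0.53, with overlapping groups. Its tMCAO libraries held 26, 90 and 37 counts. Plk1, Tpx2, Ccna2 and Cdc20 ranged from 0.00 to 0.42 with overlapping groups. Over the 22 tested members, 6 did not overlap and were higher (Aurka, Bub1b, Mcm3, Mcm4, Mcm7 and Pcna), beside 12.4% of all genes. Ccne1 did not overlap and was lower, beside 11.1% of all genes.

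**Figure D3:**
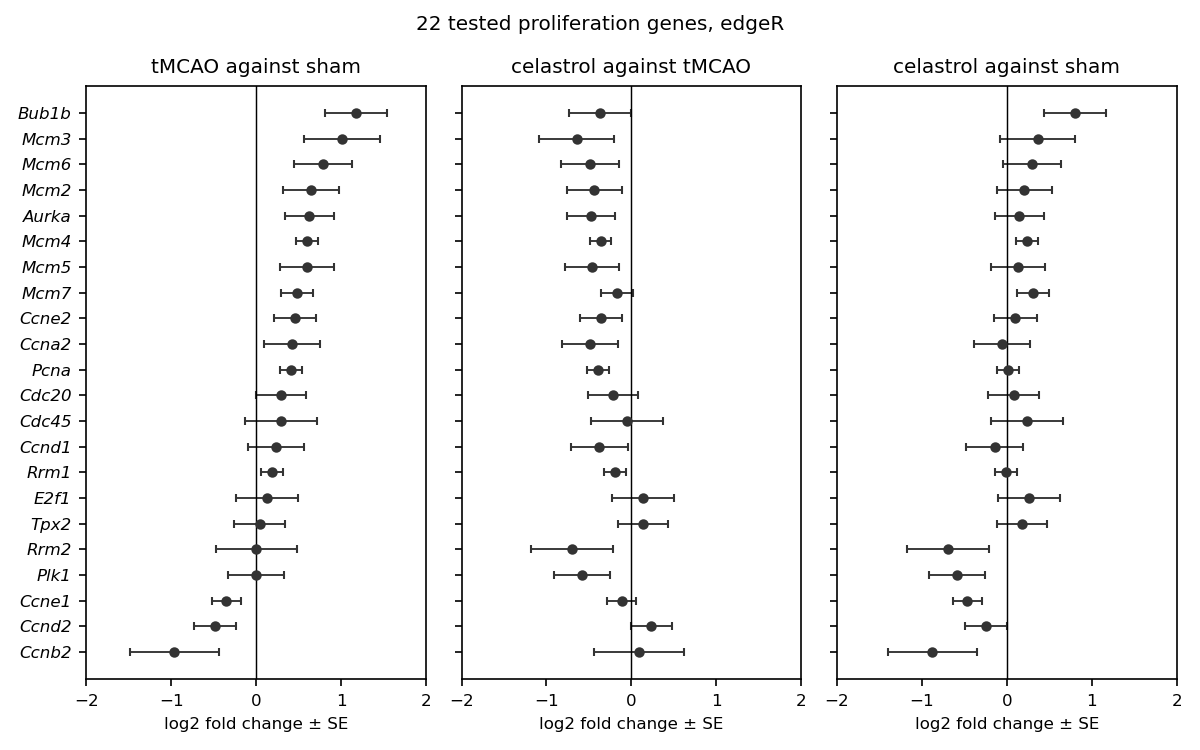
Log2 fold change ± SE from edgeR for the 22 tested members in 3 comparisons that share libraries (3 libraries a group), ordered by the first. Bub1b and the helicase genes lie to the right in tMCAO against sham, most members lie left of 0 in celastrol against tMCAO, and no value passed the adjusted threshold.

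With celastrol the 7 helicase genes, Pcna, Rrm1 and Rrm2 had lower mean values than in untreated occlusion, and again no member passed. Tyms, below the filter, did not share that direction, at 2.07 CPM against 1.97. In celastrol against tMCAO, 0 of 22 members and 0% of all genes had an adjusted p below 0.05 in edgeR, and DESeq2 called 0 members, beside 0.112% of all genes. At an unadjusted p below 0.05, Mcm4 and Pcna were lower, beside 1.86% of all genes, and 0 members were higher, beside 2.25%. The groups did not overlap for 4 members, all lower (Mcm4, Pcna, Plk1 and Rrm1), beside 4.13% of all genes, and 0 lay higher, beside 3.73%. The median log2 fold change was −0.368, against −0.004 over all genes, and 4 of 22 were above 0 (Ccnb2, Ccnd2, E2f1 and Tpx2), beside 49.3%. Without tMCAO replicate 3 the median was −0.167, and leaving out each library gave −0.435 to −0.167, with 2 to 5 members above 0. This comparison shares the tMCAO libraries with the one before, and the values are given side by side for that reason. Spread that raises a gene in those tMCAO libraries raises the first comparison and lowers this one. The opposite signs are therefore not 2 separate results, and the share over all genes is not matched for this.

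Pcna had a log2 fold change of −0.40 ± 0.13 in celastrol against tMCAO (edgeR adjusted p = 0.976). Mcm4 had −0.36 ± 0.13 (edgeR adjusted p = 0.976). All 7 helicase genes were below 0, from −0.64 for Mcm3 to −0.06 for Cdc45, while 49.3% of all genes were above 0. Mcm3 ran from −0.977 to −0.057 when 1 library was left out. Plk1, the kinase that drives mitotic entry, was at 2.18, 1.59 and 2.25 CPM in tMCAO and at 1.49, 1.52 and 0.999 in celastrol, and its sham range was 1.45 to 2.72. That range covered the tMCAO libraries, while celastrol replicate 3 lay below it. Rrm1 was at 27.7, 27.6 and 29.1 CPM in tMCAO and at 26.2, 22.3 and 25.3 in celastrol. Rrm2 had the lowest value of the comparison at −0.70 ± 0.48, with overlapping groups. Bub1b was at −0.37 ± 0.36.

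In celastrol against sham, 0 members passed in edgeR, beside 0.00589% of all genes, and DESeq2 called 0, beside 2.24%. Ccne1 was the only member at an unadjusted p below 0.05, and it was lower, beside 2.81% of all genes; 0 were higher, beside 5.69%. Its log2 fold change was −0.47 ± 0.17 (edgeR adjusted p = 0.480). Bub1b and Mcm4 lay above sham without overlap, beside 7.89% of all genes, and Ccne1 below, beside 5.54%. The median of the 22 was 0.119, against 0.003 over all genes, and with low genes kept it was −0.045 over all 36; leaving out 1 library gave −0.056 to 0.182. Of the 22, 14 were above 0, beside 50.4%, but this number ran from 8 to 15 when 1 library was left out. Pcna was at 0.01 ± 0.13 and Mcm4 at 0.24 ± 0.13.

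Taking all 6 occluded libraries against sham, which reuses the same libraries, 0 members passed in edgeR, beside 0.0118% of all genes. DESeq2 called Mcm4 (adjusted p = 0.0117), beside 4.69%. Bub1b, Mcm4 and Mcm7 were higher at an unadjusted p below 0.05, beside 8% of all genes, and Ccne1 was lower, beside 5.39%. Only Bub1b and Mcm4 lay above sham in all 6 occluded libraries, beside 4.2% of all genes, and only Ccne1 lay below, beside 2.53%. The log2 fold changes were 0.99 ± 0.33 for Bub1b, 0.42 ± 0.11 for Mcm4 and −0.41 ± 0.14 for Ccne1 (edgeR adjusted p = 0.254, 0.188 and 0.282).

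Unlike the helicase genes, the usual markers of cycling cells were not higher by mean in tMCAO than in sham. Summed, Mki67 and Top2a averaged 7.18 CPM in sham, 5.37 in tMCAO and 3.35 in celastrol. Within tMCAO and within celastrol, this sum ranked the libraries as the sum of the 7 helicase genes did. The helicase sum was 78.0, 62.0 and 101 CPM in tMCAO and 73.6, 50.2 and 62.6 in celastrol. In sham the orders differed. Mki67, whose protein coats mitotic chromosomes (chr7:135689784-135716361), was at 1.22, 4.17 and 6.01 CPM in sham, at 3.83, 1.14 and 3.08 in tMCAO and at 2.58, 1.304 and 1.64 in celastrol. Top2a, the topoisomerase that untangles sister chromatids (chr11:98992943-99024189), was at 0.626, 3.74 and 5.77 CPM in sham, at 2.42, 0.538 and 5.09 in tMCAO and at 2.40, 0.534 and 1.59 in celastrol. Each group held a low library, and all 3 groups overlapped. Within sham alone the highest library exceeded the lowest 9.2-fold for Top2a and 4.9-fold for Mki67, but 1.1-fold for Mcm4. Both markers lay below the filter and were not among the genes tested.

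Several of the rarest members were low in the same libraries, though Foxm1, Bub1, Cenpe, Kif11 and Kif20a did not share that order in every group. Cdk1, the mitotic kinase (chr10:69335146-69352938), had 0, 63 and 20 counts in sham, 55, 16 and 94 in tMCAO and 26, 4 and 23 in celastrol. Ccnb1, its cyclin, had 8, 47 and 72 counts in sham, 45, 12 and 36 in tMCAO and 21, 0 and 11 in celastrol. At these depths 3 counts are 0.0399 to 0.0497 CPM, the level that a count of 0 allows, which covers counting error only. Aurkb, the kinase of the chromosomal passenger complex, had 0, 24 and 36 counts in sham, and 110 and 44 in total in tMCAO and celastrol. Cenpf had 0 counts in celastrol replicate 2 alone, as did Ube2c, which feeds the anaphase-promoting complex. Bub1 had 0 counts in 3 libraries. In all, 6 members were at 0 in at least 1 library. Birc5 (survivin), Cenpe, Kif11 and Kif20a, which serve the spindle and cell division, had totals per group of 165 to 545 counts and overlapped between groups.

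For 12 of the 36 members the lowest library of each group was sham replicate 1, tMCAO replicate 2 and celastrol replicate 2. They were Ccnd1, Ccnd2, Rrm2, Tyms, Ccnb1, Cdk1, Aurkb, Birc5, Cenpf, Ube2c, Mki67 and Top2a, of which 9 are among the 14 below the filter. Of 28949 rows with a mean of at least 1 count, 5.41% had this pattern. These 3 libraries were singled out after the values were seen. They were also the lowest of the 9 in the summed CPM of 10 markers of neural progenitors and neuroblasts, at 109, 104 and 103, with the other 6 at 144 to 252. In tMCAO replicates 1 to 3, Nes alone took 97.3, 26.2 and 89.5 of the 199, 104 and 252 CPM. Nes was at 7.54 to 19.3 CPM in sham and at 9.01 in celastrol replicate 2. Most of the distance between tMCAO replicate 1 and the 3 low libraries in this sum was therefore Nes. The same 3 libraries were lowest in the sum of 8 astrocyte markers, at 3836, 4303 and 4287 CPM, with the other 6 at 4429 to 4555. The 8 oligodendrocyte precursor markers differed, at 338, 298 and 338 CPM in sham and 216, 324 and 298 in tMCAO. In celastrol they were at 289, 286 and 394 CPM, lowest in replicate 2. The oligodendrocyte sum was highest within its group in sham replicate 1 and tMCAO replicate 2, but lowest in celastrol replicate 2. The microglial sum was lowest within its group in sham replicate 1 and tMCAO replicate 2, but highest in celastrol replicate 2. Of the 10 progenitor and neuroblast markers, Nes, Igfbpl1 and Sox4 had the pattern themselves, and Eomes was at 0 in some library. Dcx, the neuroblast marker, had it in sham and, at 11.9 against 12.2 and 54.6, in tMCAO. In celastrol Dcx was highest in replicate 2, at 46.2 against 29.1 and 33.2. Dlx2 was also highest there, at 4.64 against 3.87 and 3.90. Sox11 was lowest in tMCAO replicate 1, at 16.5 against 18.7 in replicate 2. In bulk tissue, fewer cells of a type and less RNA per cell cannot be told apart, and the part of these cells in the values was not tested.

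**Figure D4:**
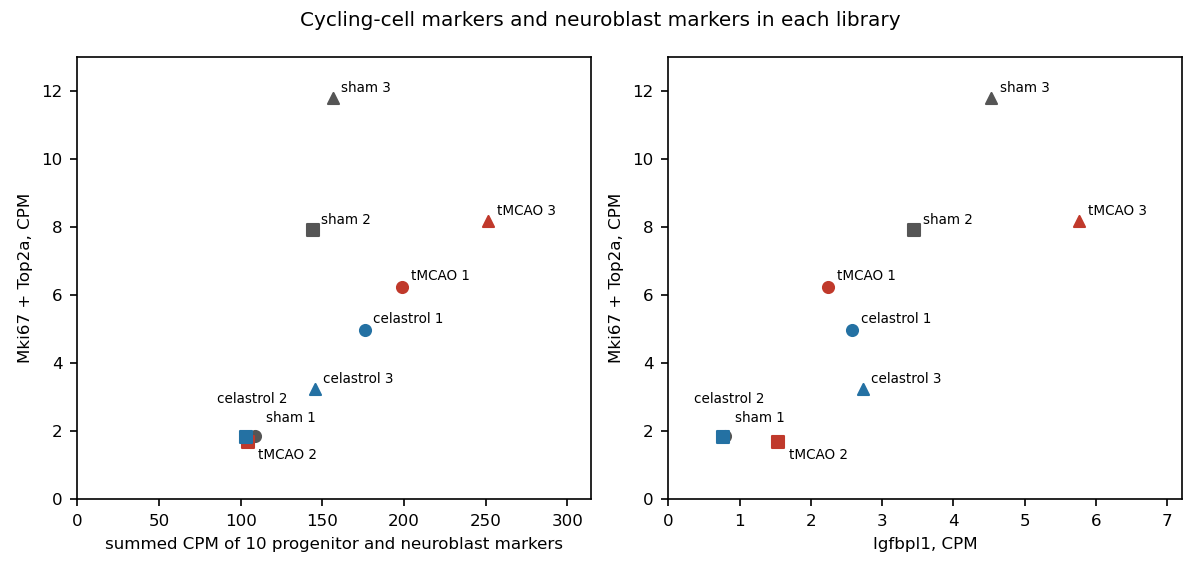
Summed CPM of Mki67 and Top2a in each library against the summed CPM of 10 progenitor and neuroblast markers (left) and against Igfbpl1 (right). Igfbpl1 is 1 of 3 markers, of the 10, that were lowest within each group in sham 1, tMCAO 2 and celastrol 2. Sham 1, tMCAO 2 and celastrol 2 lie together at the lower left, at 1.68 to 1.85 on the vertical axis, and sham 3 is highest at 11.8. In tMCAO 1, Nes made up 97.3 of the 199 CPM on the left horizontal axis.

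The hemisphere holds other cells whose markers were summed in the same way. The sum of 10 blood leukocyte markers was 5.98 to 7.45 CPM in sham, 17.99 to 30.3 in tMCAO and 16.9 to 35.7 in celastrol, with 7 of the 10 at 0 in at least 1 library, among them Cd3e and Elane. The sum of 8 endothelial markers was 229 to 234 CPM in sham, 258 to 358 in tMCAO and 258 to 433 in celastrol. Both lay above sham in every occluded library, as did Mcm4 and Bub1b, and the 8 microglial markers overlapped between groups (202 to 381 CPM over the 9). Choroid plexus and ependymal markers ran from 16.5 to 1795 CPM over the 9 libraries, and erythroid markers were 68.0 to 92.6 CPM in celastrol and at least 106 elsewhere. The neuronal, astrocytic and oligodendrocytic markers were all present in every library. The part of any of these in the members' values was not tested.

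Other genes of the cycle, outside the 36, also gave no calls in the edgeR fit with all libraries. Unlike the members, Gins2, Cdkn1a and Myc passed in edgeR in some alternatives, given below. Among 48 other replication genes, 38 were tested, 0 passed in that fit in any of the 4 comparisons, and the median in tMCAO against sham was 0.253. Gins1 and Gins2, whose proteins complete the active helicase with Cdc45, had the smallest p of that list in tMCAO against sham. No sham library of either passed FPKM 0.5, so they entered the test only through the occluded groups, where they were high. Gins2 was at 0.765, 0.657 and 1.02 CPM in sham, at 6.48, 6.51 and 6.75 in tMCAO and at 7.93, 0.613 and 1.71 in celastrol. All tMCAO libraries were high, and in celastrol replicate 1 alone was high (tMCAO against sham 3.02 ± 0.79, edgeR adjusted p = 0.180, or 0.0365 with only these groups in the fit). Gins1 was at 1.89 ± 0.40 (edgeR adjusted p = 0.125). DESeq2 called both (adjusted p = 0.00138 for Gins1 and 0.00259 for Gins2). In celastrol against tMCAO the leading genes of the list were Lig1, which seals replicated strands, at −0.43 ± 0.15, and Rfc3, part of the clamp loader, at −0.47 ± 0.20 (adjusted p = 0.976 for each).

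Of 22 inhibitors of the cycle, 19 were tested and 0 passed in edgeR in any comparison with all libraries in the fit. In these lists DESeq2 was looked up only for the genes named, so its calls are not counts over the lists. It called Cdkn1a in each comparison with sham. Over all genes DESeq2 called 4.92% in tMCAO against sham, 2.24% in celastrol against sham and 4.69% in all occluded against sham. Cdkn1a, the kinase inhibitor p21, was at 20.4, 20.2 and 29.9 CPM in sham and at 168, 127 and 72.9 in tMCAO (2.39 ± 0.42, edgeR adjusted p = 0.0994, DESeq2 adjusted p = 1.66e-06). Without celastrol replicate 2, which enters only the estimate of the spread, its edgeR adjusted p was 0.0309. Gadd45b, a stress gene, was at 1.64 ± 0.47 (edgeR adjusted p = 0.196, DESeq2 adjusted p = 0.0161). Among 24 other cyclins, kinases and E2F genes, 20 were tested, and the leaders in tMCAO against sham were Myc at 1.22 ± 0.31 and Cdk6, a partner of the D cyclins, at 0.97 ± 0.27 (edgeR adjusted p = 0.166 and 0.190). DESeq2 called both (adjusted p = 0.00802 and 0.0229), and Cdk6 had no sham library past FPKM 0.5. Of 54 other mitotic genes, 19 were tested, with a median of 0.022, led by Cks1b at 0.97 ± 0.35 and Cdc25a at 0.55 ± 0.25 (edgeR adjusted p = 0.264 and 0.343). In celastrol against tMCAO the leaders of these 3 lists were Btg1 and Cdkn1c, E2f3 and Cdk2, and Racgap1 and Bub3, all at an edgeR adjusted p of 0.976. In celastrol against sham they were Cdkn1a and Ccng1, Cdk6 and Myc, and Bub3 and Smc4, none of which passed in edgeR with all libraries. DESeq2 called Cdkn1a and Cdk6 there (adjusted p = 1.71e-05 and 0.0107), and edgeR called Cdkn1a without celastrol replicate 2 (adjusted p = 0.0368). Of the genes named for all occluded against sham, DESeq2 called Cdkn1a, Gadd45g, Cdk6, Myc, Gins1 and Gins2 (adjusted p from 3.03e-08 to 0.0256). Without celastrol replicate 2, edgeR called Cdkn1a and Myc in that comparison (adjusted p = 0.0224 and 0.0489).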

How the data were processed

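Ribosomal RNA was depleted from 5 µg of total RNA per sample, and libraries with inserts near 300 bp were read as 2 × 150 bp, per the labels' protocols. The build was mm10 and the tools were HISAT2 2.0.4, StringTie 1.3.4d and cutadapt 1.9, with DESeq2 and edgeR, per the submitters' processing notes. The sources used here do not give settings or strand use. The authors deposited an estimated count (whole numbers) and an FPKM value for each gene and library; in the deposited table a count of 0 has an FPKM of 0.0001 or less. No per-sample column was unmapped.

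The 36 members, the other gene lists and the markers were chosen with earlier results of these data known. Groups came from the labels. All 9 libraries entered 1 edgeR 4.0.16 quasi-likelihood fit (R 4.3.3, TMM, two-sided) over 16982 genes with FPKM of at least 0.5 in at least 3 libraries, with Benjamini-Hochberg adjustment over them and a threshold of 0.05. The SE was taken as the log2 fold change over the square root of the F statistic, and is approximate. All 36 members are named; in the other pathway lists the rule names genes past the threshold or, where none passed, the 2 with the smallest unadjusted p. DESeq2 1.42.0 and limma 3.58.1 were alternatives, as were other scalings, filters, a replicate block and leaving out each library; upper quartile scaling and edgeR's newer quasi-likelihood form were added after seeing the data. The fit was tested on simulated data with changes larger than those of any tested member. It therefore does not show how often changes of the members' size would pass.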

Additional observations from a re-analysis of the deposited data

How the results depend on the processing

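The number of members called stayed at 0 in edgeR and limma under every alternative and when any 1 library was left out (0 to 0 in each comparison); DESeq2 called 2 in tMCAO against sham and 1 in all occluded against sham. The number of genes called over all 16982 was unstable. For tMCAO against sham (0 in the fit reported) it was 836 with DESeq2, 29 with only the groups compared, 2 with edgeR's newer form and 2 with limma on log2(FPKM + 0.1); for celastrol against tMCAO (0) it was 19 with DESeq2. For celastrol against sham (1) it was 380 with DESeq2, 6 with the newer form, 4 with only the groups compared, 3 with limma on log2(FPKM + 0.1), 3 with no filter, 2 with a filter of FPKM 1, and 0 with limma-voom or a mean FPKM of 0.1. For all occluded against sham (2) it was 797 with DESeq2, 29 with limma on log2(FPKM + 0.1), 5 with the newer form, 4 with no filter and 0 with limma-voom. Leaving out 1 library gave 0 to 91, 0 to 2, 0 to 46 and 0 to 200 genes in the 4 comparisons in that order, and the 91, 46 and 200 came from leaving out celastrol replicate 2. With a replicate block the counts were 51, 0, 22 and 64, with 0 members called. Correlations of deviations ran from −0.156 to 0.198 for same-numbered libraries and from −0.264 to 0.227 for differently numbered ones. They cannot settle whether the numbers pair the libraries, so the block is given as an alternative only.

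Signs were less stable than the absence of calls: of 88 values (22 members in 4 comparisons), 23 turned sign in at least 1 alternative, 11 of them in celastrol against sham. The cause was not tested. In tMCAO against sham, Plk1 (main value below 0) was 0.099 with library totals only, 0.029 with upper quartile scaling, 0.001 with the newer form, 0.070 and 0.108 with limma on log2(FPKM + 0.5) and log2(FPKM + 0.1), 0.031 with limma-voom and 0.008 with the replicate block. Rrm2 (main value above 0) was −0.003 with RLE size factors, DESeq2 and a mean FPKM filter, −0.002 with no filter and −0.038 with the block. In celastrol against tMCAO, E2f1 was −0.021, −0.037 and −0.032 with the 2 limma fits on FPKM and limma-voom. In celastrol against sham, Rrm1 was 0.052 with library totals, 0.005 with upper quartile scaling and 0.039 and 0.047 with limma on FPKM, and Ccna2 was 0.006 with library totals. Library totals alone moved the median of all genes from 0.007 to 0.106 in tMCAO against sham, and that of the members from 0.353 to 0.454.

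Leaving out 1 library gave ranges that cross 0. In tMCAO against sham these were −0.142 to 0.463 for Ccnd1, −0.034 to 0.256 for E2f1, −0.298 to 0.428 for Rrm2, −0.189 to 0.281 for Plk1 and −0.102 to 0.240 for Tpx2. In celastrol against tMCAO they were −0.215 to 0.474 for E2f1, −0.361 to 0.185 for Cdc45, −0.355 to 0.725 for Ccnb2 and −0.143 to 0.256 for Tpx2. In celastrol against sham they were −0.398 to 0.034 for Ccnd1, −0.072 to 0.266 for Ccne2, −0.089 to 0.599 for E2f1, −0.076 to 0.371 for Mcm5, −0.069 to 0.536 for Cdc45, −0.078 to 0.107 for Pcna, −0.077 to 0.103 for Rrm1, −0.293 to 0.260 for Ccna2, −0.119 to 0.329 for Aurka, −0.101 to 0.379 for Tpx2 and −0.040 to 0.225 for Cdc20. In all occluded against sham they were −0.208 to 0.223 for Ccnd1, −0.647 to 0.079 for Rrm2 and −0.033 to 0.309 for Tpx2. Counts were few for the 14 members below the filter, and 6 members had a library at 0 counts.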
